A study of Mus musculus with 8 samples.

Results

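The WNT ligands described here were 10 secreted signalling proteins of the developing lung, Wnt2, Wnt2b, Wnt4, Wnt5a, Wnt5b, Wnt6, Wnt7b, Wnt9a, Wnt9b and Wnt11. They were taken by gene symbol, for their known mesenchymal, mesothelial or epithelial source, from a table of 55401 genes, and all 10 were found there. RNA had been sequenced from mouse lung at E13.5, a stage of airway branching, in 4 mutant libraries and 4 control libraries. The mutant genotype is written as Tbx4tetOcre with MyrfE6, and the controls are named only as cre control. Tbx4 is a T-box gene of lung mesenchyme, tetO is the operator of tetracycline-controlled promoters, and Myrf encodes a membrane-bound transcription factor that is also made in mesothelium, the cell layer covering the lung. The labels do not say which cells recombined, whether an inducer was given to either group, what the MyrfE6 allele lacks, whether the controls carry it or how many embryos gave a library. Nor is it stated that replicates came from different embryos or litters; p-values therefore reflect the variation among these libraries alone, and part of it may be technical.

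WNT ligands are lipid-modified proteins that act over short distances. They bind Frizzled receptors, and with Lrp5 or Lrp6 they stabilise beta-catenin, which enters the nucleus and activates genes together with Lef1 and the TCF factors. Other ligands, such as Wnt5a and Wnt11, are known mainly for signals through Ror and planar polarity proteins that do not need beta-catenin. In mouse lung, Wnt2 and Wnt2b from the mesenchyme are known to be needed together for the lung field to form, and Wnt7b from the airway epithelium is known to promote growth of the mesenchyme and its smooth muscle.

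The promoters of the ligands that changed, Wnt2 and Wnt4, are shown together with that of Wnt11, which held a copy of each of the motifs searched. Sequences are from RefSeq (build GRCm38.p6), read 5′ to 3′ on the strand of the gene, and end before both the RefSeq start and the first exon base of the gene in the deposited table. They cover chr6:18030586-18030695 on the minus strand for Wnt2, chr4:137277385-137277488 on the plus strand for Wnt4 and chr7:98834862-98835111 on the plus strand for Wnt11. Capitals mark the MYRF core (CTGGCAC or CTGGTAC) and the TCF/LEF core (CTTTGAA or CTTTGAT), searched on both strands.
Wnt2: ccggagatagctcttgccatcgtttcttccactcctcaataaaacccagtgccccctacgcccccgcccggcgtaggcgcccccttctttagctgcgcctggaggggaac
Wnt4: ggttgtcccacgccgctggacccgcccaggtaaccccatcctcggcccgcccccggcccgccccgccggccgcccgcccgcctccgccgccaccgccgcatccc
Wnt11: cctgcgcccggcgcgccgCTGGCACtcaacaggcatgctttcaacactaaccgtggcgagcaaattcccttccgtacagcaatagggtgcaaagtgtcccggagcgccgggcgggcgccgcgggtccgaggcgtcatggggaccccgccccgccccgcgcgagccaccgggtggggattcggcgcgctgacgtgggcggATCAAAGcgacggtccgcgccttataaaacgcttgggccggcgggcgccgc
Among 11 promoter windows of 300 bases that belonged to 8 of the ligands, 1 held the MYRF core, that of Wnt11, against 7.1% of all 32851 windows. The TCF/LEF core lay in 2 of the 11, from Wnt11 and Wnt5b, against 8.65% of all windows. Neither motif lay in the windows of Wnt2 or Wnt4, which says only that these letters were not there. Wnt5a and Wnt7b had no window in the table.

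Library totals ranged from 17819285 to 48679134 counts in mutants and from 17799899 to 19032389 counts in controls, and the deepest library was mutant replicate 2. Levels are given in CPM, the usual counts per mega-count of a library's total, scaled between libraries by trimmed means of M-values (TMM). Myrf measured 88.4 ± 4.17 CPM in mutants and 114 ± 5.64 CPM in controls (SD, n = 4 each), with no overlap and an adjusted p of 0.000211. The lung markers Nkx2-1 and Foxf1 were present in every library, at 157 CPM or more. Sex-linked transcripts differed between libraries. Mutant replicates 1 and 2 had Y-linked genes at 133 and 143 CPM with under 1 CPM of Xist, controls 2 and 3 had Xist at 874 and 868 CPM with Y-linked genes at 0 and 0.0565 CPM, and mutants 3 and 4 and controls 1 and 4 had both kinds of transcript. The libraries with Y-linked counts alone were all mutants and those with Xist alone were all controls, so a comparison within a class was possible only in those 4, called mixed libraries here and set apart after the data were seen. The first principal component of all genes tested placed mutant replicate 4 (-4.12) next to control replicate 4 (-4.96) and apart from mutants 1 to 3 (12.5 to 23.9).

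Of the 10 ligands, 9 passed the low-count filter and were tested. Wnt2 fell and Wnt4 rose in the mutant lung, and the other 7 did not pass the test (edgeR quasi-likelihood test, adjusted p below 0.05 over all 15788 genes tested). Across all genes the same test called 1.49%, with 0.564% higher and 0.931% lower in mutants, while 13.9% had an unadjusted p below 0.05 and 50% a positive log2 fold change. The groups did not overlap for the same 2 ligands, Wnt2 and Wnt4, where 7.37% of all genes tested did not overlap. The median log2 fold change of the 9 ligands was 0.10, beside 6.5e-05 for all genes tested. In bulk lung RNA, fewer cells of a type and less RNA per cell cannot be told apart.

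**Figure D1:**
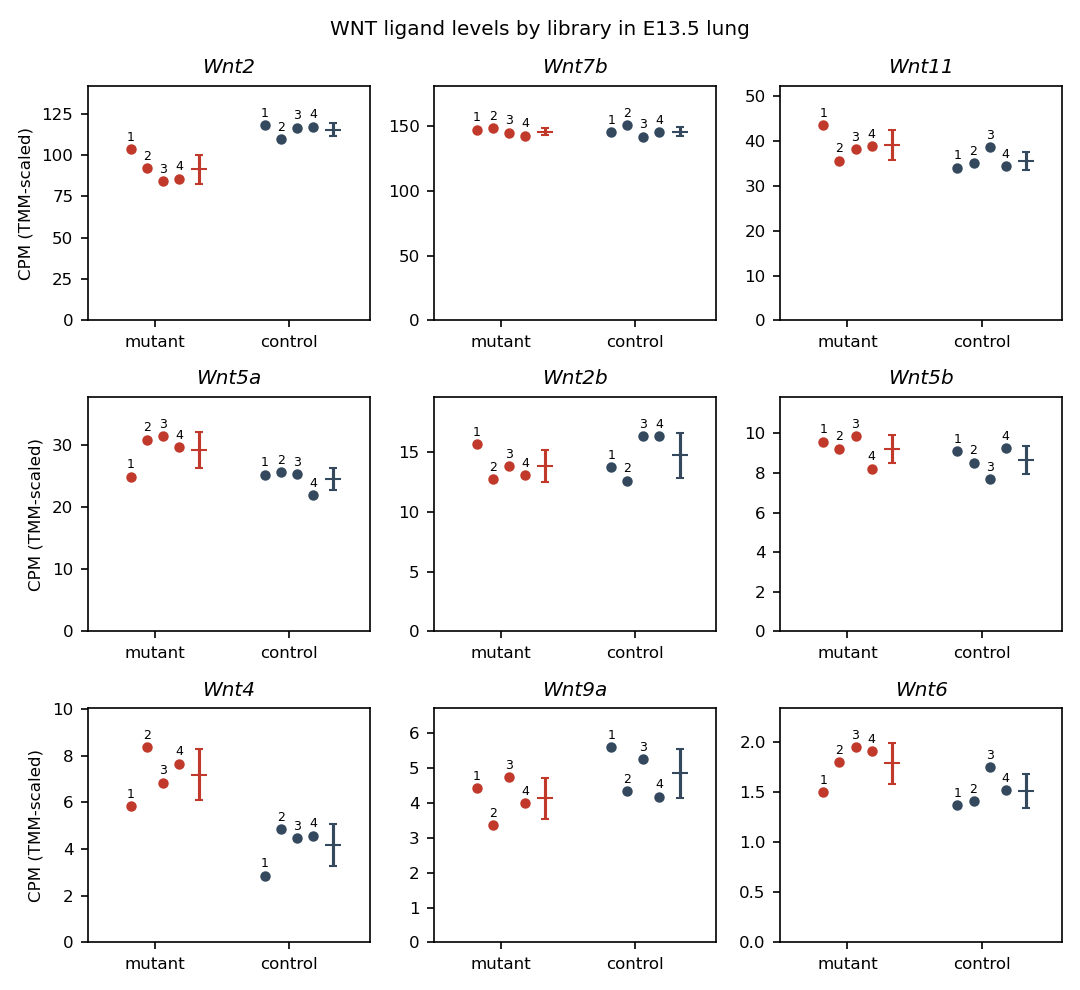
CPM (TMM-scaled, linear axis from 0) of the 9 tested WNT ligands, with the 4 mutant libraries in red left of the 4 control libraries in blue; numbers are replicates, and the bars give mean and SD. All mutant libraries lie below all controls for Wnt2 and above them for Wnt4, and the groups overlap in the other 7 panels.

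Wnt2, a ligand of the distal lung mesenchyme that acts through beta-catenin, was the most abundant of the 10 per exon length. The gene occupies chr6:17988940-18030585 (GRCm38, minus strand). It measured 103.6, 91.9, 84.3 and 85.7 CPM in mutant replicates 1 to 4, against 118, 109.6, 117 and 117 CPM in control replicates 1 to 4. All mutant libraries were lower than all controls, and mutant replicate 1 lay closest to them. The mean was 91.4 ± 8.81 CPM in mutants and 115 ± 3.9 CPM in controls (SD, n = 4 each), and Wnt2 fell by 20.7%, or -0.33 as log2 fold change (SE 0.0559, 95% interval -0.45 to -0.21, adjusted p = 0.00852). In the 4 mixed libraries, Wnt2 was 84.3 and 85.7 CPM in mutants and 118 and 117 CPM in controls, with a log2 difference of -0.47 (SE 0.0539, adjusted p = 0.000981). Its spread within groups was unequal, with a coefficient of variation of 9.64% in mutants and 3.38% in controls.

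Wnt4, a ligand best known from kidney tubules and the female reproductive tract and also needed for normal lung growth in mouse, was a low-level transcript that rose in the mutant lung. The gene occupies chr4:137277489-137299726 (plus strand). The counts were 148, 408, 140 and 136 in mutant replicates 1 to 4 and 54, 86, 79 and 81 in control replicates 1 to 4. As levels these were 5.84, 8.36, 6.83 and 7.65 CPM in mutants, against 2.85, 4.85, 4.46 and 4.57 CPM in controls. Every mutant library was above every control, with mutant replicate 1 the lowest of its group and control replicate 1 the lowest of all. The mean was 7.17 ± 1.09 CPM in mutants and 4.18 ± 0.902 CPM in controls (SD, n = 4 each), a 1.73-fold rise, 0.79 on the log2 scale (SE 0.154, 95% interval 0.46 to 1.11, adjusted p = 0.0165). The call of Wnt4 depended on single libraries: the adjusted p was 0.0554 without mutant replicate 2 and 0.0514 without control replicate 3, with log2 fold changes of 0.70 and 0.83, and 1.33e-07 to 0.0737 over all alternatives. In the 4 mixed libraries, the log2 fold change was 0.97 (SE 0.213, adjusted p = 0.0737).

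For both ligands the mutant library nearest to the controls was replicate 1, which stood at an end of the mutants in most marker sums. Among mutants it was highest in summed mesothelium, heart muscle and erythroid markers. In leukocyte markers it was also highest, but barely, at 80.80 CPM beside 80.77 CPM in mutant replicate 3. Mutant replicate 1 was lowest in those of lung epithelium, mesenchyme, endothelium and cartilage. For smooth muscle, nerve and neural crest, esophagus and stomach, and liver it lay between other mutants. The mesenchyme sum was mostly Col1a1, at 1914, 2268, 2669 and 2676 CPM in mutant replicates 1 to 4. Of the other mesenchyme genes, Tbx4, Foxf1, Tcf21, Pdgfra and Gli1 were highest in mutant replicate 1. Meox2 was lowest there and Tbx5 lay between other mutants. The summed level of 12 mesothelium genes was 309 CPM in mutant replicate 1 and 266, 267 and 267 CPM in mutant replicates 2 to 4, against 341 to 366 CPM in controls. Of these 12 genes, 4 fell (Wt1, Lrrn4, Upk3b and Gpm6a) and none rose, 7 had an unadjusted p below 0.05, and none was at 0 in any library. Across all genes tested, edgeR called 1.49%, 13.9% had an unadjusted p below 0.05 and 50% a positive log2 fold change. The summed level of 10 lung epithelium genes was 1078 to 1136 CPM in mutants and 1007 to 1085 CPM in controls. Of these 10 genes 8 had a positive log2 fold change, 6 an unadjusted p below 0.05, and 1 was called, Sox2, an airway epithelial factor, which rose (log2 fold change 0.53, SE 0.0823, adjusted p = 0.00282). The 8 mesenchyme genes summed to 3146 to 3872 CPM in mutants and 3008 to 3695 CPM in controls. Most of that was Col1a1, at 1914 to 2676 CPM in mutants and 1754 to 2520 CPM in controls. The 6 smooth muscle genes summed to 1118 to 1230 CPM in mutants and 1030 to 1122 CPM in controls. No mesenchyme or smooth muscle gene was called by edgeR, with 1 and 4 at an unadjusted p below 0.05. The 6 nerve and neural crest genes summed to 32.97 to 37.6 CPM in mutants and 27.3 to 29.9 CPM in controls, without overlap. By edgeR 1 of them, Ret, rose, while DESeq2 called Ret and Tubb3 and limma-voom called 0. In other marker lists edgeR called Emcn of endothelium and Hbb-bh1 of erythroid cells higher, and Mrc1 of leukocytes lower. Emcn was called by DESeq2 but not by limma-voom. DESeq2 further called Acta2 of smooth muscle, Tnnt2 of heart muscle, and Aldh1a2 and Calb2 of mesothelium. Of these, limma-voom called only Aldh1a2. Heart muscle genes summed to 20.4 to 63.4 CPM in mutants and 12.6 to 27.9 CPM in controls, with Nppa at 0 in at least 1 library. The part of these cell types in the levels of Wnt2 and Wnt4 was not tested.

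**Figure D2:**
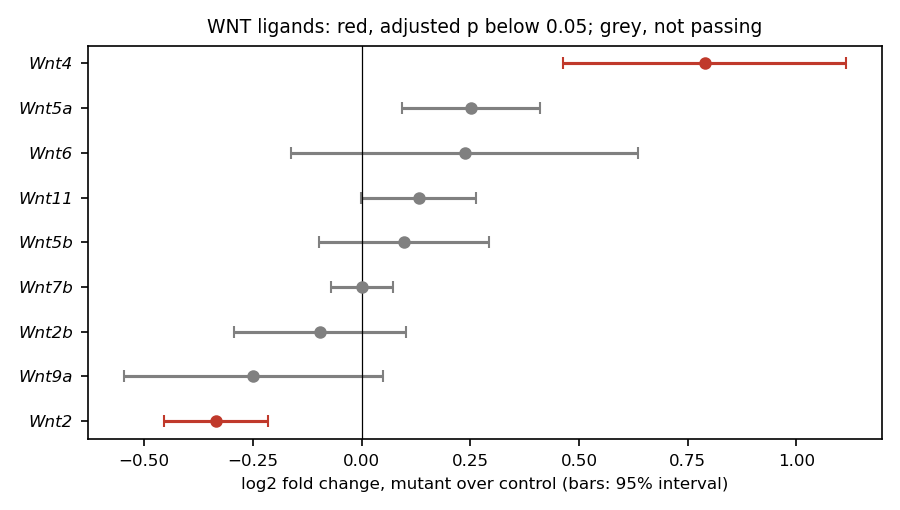
Log2 fold change of mutant over control for the 9 tested WNT ligands, with 95% intervals from the fit. Wnt4 and Wnt2, in red, passed the test at 0.79 and -0.33, and the interval of Wnt7b is the narrowest, from -0.07 to 0.07.

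Wnt7b, the ligand of the airway epithelium, lies at chr15:85535437-85582473 (minus strand). It measured 147, 149, 145 and 143 CPM in mutant replicates 1 to 4, against 146, 151, 142 and 145 CPM in control replicates 1 to 4. The libraries of both groups lay within the same narrow band. The mean was 145.9 ± 2.63 CPM in mutants and 145.9 ± 3.74 CPM in controls (SD, n = 4 each). The log2 fold change was 0.00 (SE 0.0336, adjusted p = 0.993), and its 95% interval ran from -4.71% to 5.11%.

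Wnt5a, Wnt5b and Wnt11, known mainly for signalling without beta-catenin, did not pass the test. Wnt5a (chr14:28504750-28527448, plus strand), which directs airway and tracheal growth from the mesenchyme, measured 24.9, 30.8, 31.4 and 29.5 CPM in mutant replicates 1 to 4, against 25.2, 25.5, 25.3 and 21.9 CPM in control replicates 1 to 4. Mutant replicate 1 lay within the controls and the other 3 mutants above them. The mean was 29.1 ± 2.94 CPM in mutants and 24.5 ± 1.74 CPM in controls (SD, n = 4 each), for which the log2 fold change was 0.25 (SE 0.0756, 95% interval 0.09 to 0.41, adjusted p = 0.103). Without mutant replicate 1 the adjusted p was 0.022 at a log2 fold change of 0.33, and over all alternatives it ran from 0.00431 to 0.277. Wnt5b (chr6:119432531-119544347, minus strand), its closest relative, measured 8.22 to 9.86 CPM in mutants and 7.68 to 9.25 CPM in controls (log2 fold change 0.10, SE 0.0929, adjusted p = 0.713). Wnt11 (chr7:98835112-98855195, plus strand) measured 43.6, 35.6, 38.3 and 38.8 CPM in mutant replicates 1 to 4, against 34.1, 35.1, 38.7 and 34.5 CPM in control replicates 1 to 4. The groups overlapped through mutant replicates 2 and 3 and control replicate 3, and the log2 fold change was 0.13 (SE 0.0625, 95% interval -0.00 to 0.26, adjusted p = 0.361).

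Wnt2b (chr3:104945272-104961921, minus strand), the mesenchymal and mesothelial relative of Wnt2, measured 15.7, 12.7, 13.8 and 13.1 CPM in mutant replicates 1 to 4, against 13.7, 12.6, 16.3 and 16.4 CPM in control replicates 1 to 4. The groups overlapped over nearly their whole range. The log2 fold change was -0.10 (SE 0.0941, adjusted p = 0.721), and the 95% interval ran from -18.4% to 7.29%. Wnt9a (chr11:59306928-59333552, plus strand), known from joint formation, measured 3.36 to 4.73 CPM in mutants and 4.17 to 5.60 CPM in controls (log2 fold change -0.25, SE 0.142, adjusted p = 0.463). Wnt6 (chr1:74771892-74785322, plus strand), with 34 to 88 counts in mutants and 25 to 31 counts in controls, gave a log2 fold change of 0.24 (adjusted p = 0.642, SE 0.19). Its 95% interval was wide, from -10.6% to 55.5%. Wnt9b (chr11:103727364-103749821, minus strand), known as a ligand of the kidney duct, had 1, 1, 1 and 0 counts in mutant replicates 1 to 4 and 1, 1, 0 and 0 counts in control replicates 1 to 4. All were under the floor of 3 counts per library, 0.169 CPM at the smallest total, so no difference in Wnt9b was detectable at this depth. Intervals and floors cover counting error and the spread of these libraries only.

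The range of levels across the tested ligands was far wider than the difference of any of them between groups. Compared as CPM per kb of exon, Wnt2 was highest, at 40.5 in mutants and 51.2 in controls, followed by Wnt7b at 29.8 in both groups and Wnt11 at 9.45 in mutants and 8.61 in controls. Wnt5a, Wnt2b and Wnt5b formed the next step, with overlapping ranges of 3.03 to 4.01 in mutants and 2.80 to 3.89 in controls. Wnt6 was the lowest of those tested, at 0.817 in mutants and 0.691 in controls. The exon length is that of all annotated exons of a gene together, so a ligand with long unused exons is understated. Wnt4 and Wnt9a stood between, and their order differed by group. In mutants Wnt4, at 1.39 to 1.99 CPM per kb, overlapped Wnt9a at 1.01 to 1.42, whereas in controls Wnt4, at 0.680 to 1.16, lay wholly below Wnt9a at 1.25 to 1.68.

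**Figure D3:**
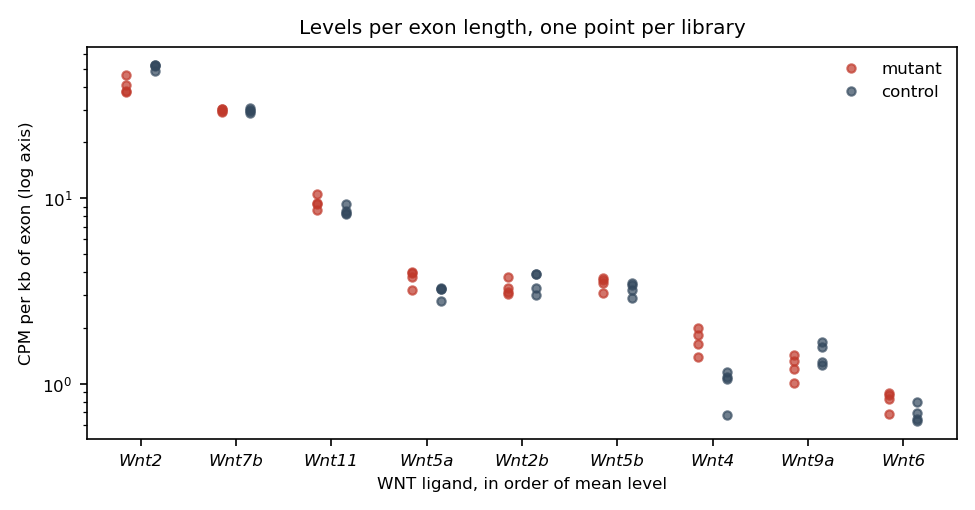
CPM per kb of exon on a log axis for the 9 tested WNT ligands in order of mean level, 1 point per library, with mutants in red left of controls in blue. Wnt2, Wnt7b and Wnt11 are separate from each other and from the rest, Wnt5a, Wnt2b and Wnt5b overlap, and Wnt4 lies below Wnt9a in controls.

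Added up per exon length, the 10 ligands came to 100.5, 94.0, 91.2 and 90.4 CPM per kb in mutant replicates 1 to 4, against 103.3, 100.5, 103.5 and 103.2 CPM per kb in control replicates 1 to 4. Wnt2 made up 45.7%, 43.4%, 41.0% and 42.0% of that sum in mutants and 50.7%, 48.4%, 49.96% and 50.4% in controls. With Wnt7b it held 74.8% ± 1.08 of the sum in mutants and 78.9% ± 0.667 in controls (SD, n = 4 each). The ratio of Wnt2 to Wnt7b per length was 1.36 ± 0.116 in mutants and 1.72 ± 0.0954 in controls, and the shares are bound together, since they add up to a whole. Wnt4 held 1.38% to 2.12% of the sum in mutants and 0.658% to 1.15% in controls.

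The other 9 mouse WNT ligands had few or no counts. None passed the low-count filter, and their summed level was 0.844 to 1.22 CPM in mutants and 0.620 to 1.92 CPM in controls. Wnt7a had the most counts, 8 to 25 in mutants and 6 to 16 in controls, and Wnt1 had 0 in every library. Among the tested ligands, Wnt5b and Wnt7b share ground with genes on the opposite strand, Fbxl14 with 13252 counts in all and AU022754 with 257, and the counting used strand; other genes overlapping a ligand had at most 2 counts.

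The genes that lipidate, release, receive and pass on WNT signals were described in 7 lists. In the 4 lists that follow, DESeq2 and limma-voom also called 0 genes. Of 2 genes of lipidation and secretion 0 were called by edgeR, with 0 at an unadjusted p below 0.05. Wls, which carries ligands to the cell surface, measured 163.5 ± 5.44 CPM in mutants and 157.6 ± 3.42 CPM in controls (SD, n = 4 each), and Porcn, which attaches the lipid, 13.8 ± 1.02 CPM in mutants and 14.9 ± 1.11 CPM in controls. Of 16 receptors and co-receptors 0 were called, with 3 at an unadjusted p below 0.05, beside 13.9% of all genes, and a median log2 fold change of 0.02. The highest per length were Ptk7, a planar polarity co-receptor, whose log2 fold change was -0.07 (SE 0.0317, adjusted p = 0.299), and Fzd2, a Frizzled receptor, with 0.03 (SE 0.0421, adjusted p = 0.825). Of 8 tested genes of the R-spondin axis, which strengthens WNT signals by sparing receptors from removal, 0 were called and 2 had an unadjusted p below 0.05. Rspo1 and Rspo2, the highest per length in the mean of all 8 libraries, were not called: the log2 fold change of Rspo1 was -0.06 (SE 0.148, adjusted p = 0.905), and Rspo2, at -0.22 (SE 0.0605), had an adjusted p of 0.0737. Of 10 planar polarity genes 0 were called, 3 had an unadjusted p below 0.05 and 8 had negative log2 fold changes, beside 13.9% and 50% of all genes; with so few genes nothing is read from these counts. Scrib and Daam2 were the highest per length, with Scrib at -0.04 (SE 0.0464, adjusted p = 0.747) and Daam2 at -0.09 (SE 0.0369, adjusted p = 0.255).

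The antagonists and the beta-catenin branch each held 1 called gene. Of 11 tested antagonists, Kremen1 rose; among the 10 that were not called, 3 had a positive log2 fold change. DESeq2 called Kremen1 and also Sfrp2, a secreted Frizzled-related antagonist named after its result was seen, and limma-voom Kremen1 alone. Kremen1, a receptor that binds Dickkopf antagonists and helps remove Lrp6, measured 65.3, 61.9, 63.5 and 66.2 CPM in mutant replicates 1 to 4, against 52.9, 54.7, 54.7 and 57.5 CPM in control replicates 1 to 4. The groups did not overlap, and the log2 fold change was 0.22 (SE 0.0429, adjusted p = 0.0144). The size of the difference was similar where the call was lost: 0.20 (SE 0.0459, adjusted p = 0.0519) without control replicate 1, 0.22 (SE 0.056, adjusted p = 0.1) with a covariate for Y-linked level and 0.24 (SE 0.0701, adjusted p = 0.236) in the 4 mixed libraries. The adjusted p ran from 0.000102 to 0.236 over all alternatives. Of 16 beta-catenin branch transducers, Lef1 fell and 15 did not pass, with a median log2 fold change of -0.03. Of 13 target genes Lef1 alone was called, and their median log2 fold change was -0.1. Of the other 12, 3 had a positive log2 fold change, beside 50% of all genes. An unadjusted p below 0.05 was found for 5 of the 13, beside 13.9% of all genes. For 4 of the 13 the groups did not overlap, beside 7.37% of all genes. The 13 genes summed to 822 to 850 CPM in mutants and 874 to 908 CPM in controls, without overlap. Lef1, a DNA-binding partner of beta-catenin and itself a target, measured 37.1, 35.6, 34.2 and 37.2 CPM in mutant replicates 1 to 4, against 49.4, 42.1, 48.5 and 49.1 CPM in control replicates 1 to 4. The groups did not overlap (log2 fold change -0.39, SE 0.0553, adjusted p = 0.0011). Unlike the levels of Wnt2, those of Lef1 in mutant replicate 1 lay within the range of the other mutants. The difference between Wnt2 and Lef1 in this library was not tested.

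**Figure D4:**
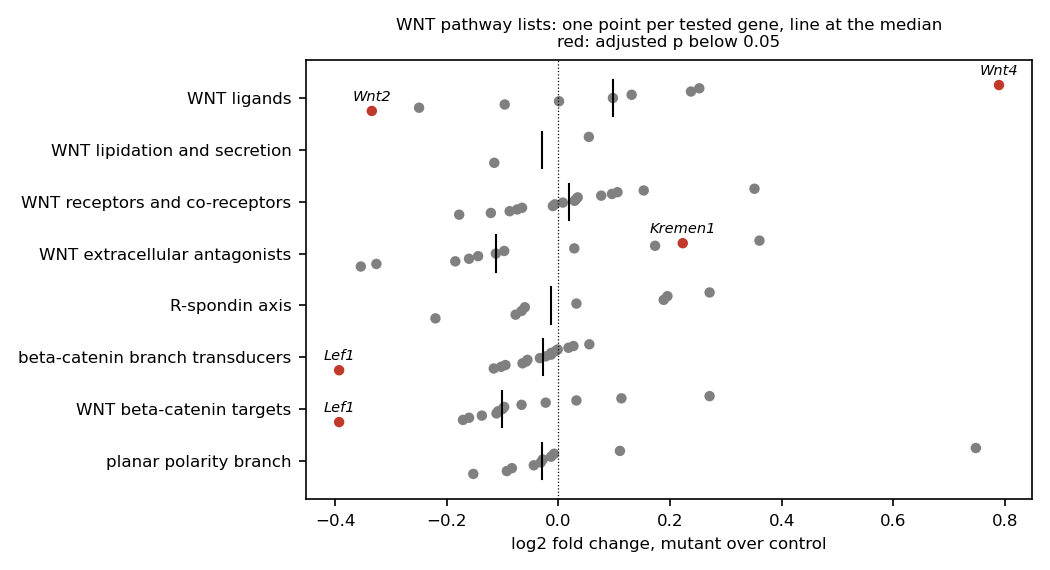
Log2 fold change of mutant over control for each tested gene of the WNT ligands and 7 other WNT lists, 1 point per gene, with a line at each list's median. The 4 genes in red, Wnt2, Wnt4, Kremen1 and Lef1, passed the test. Lef1 belongs to 2 lists, as do the targets Notum, Znrf3, Rnf43, Lgr5, Tcf7 and Apcdd1.

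The direction of both ligand calls was kept in every alternative run, while their calls were not equally stable. The log2 fold change of Wnt2 lay between -0.47 and -0.29 in 17 alternatives and passed in all 17, with adjusted p from 2.12e-11 to 0.0491. That of Wnt4 lay between 0.64 and 0.98 and passed in 14 of 17.

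**Figure D5:**
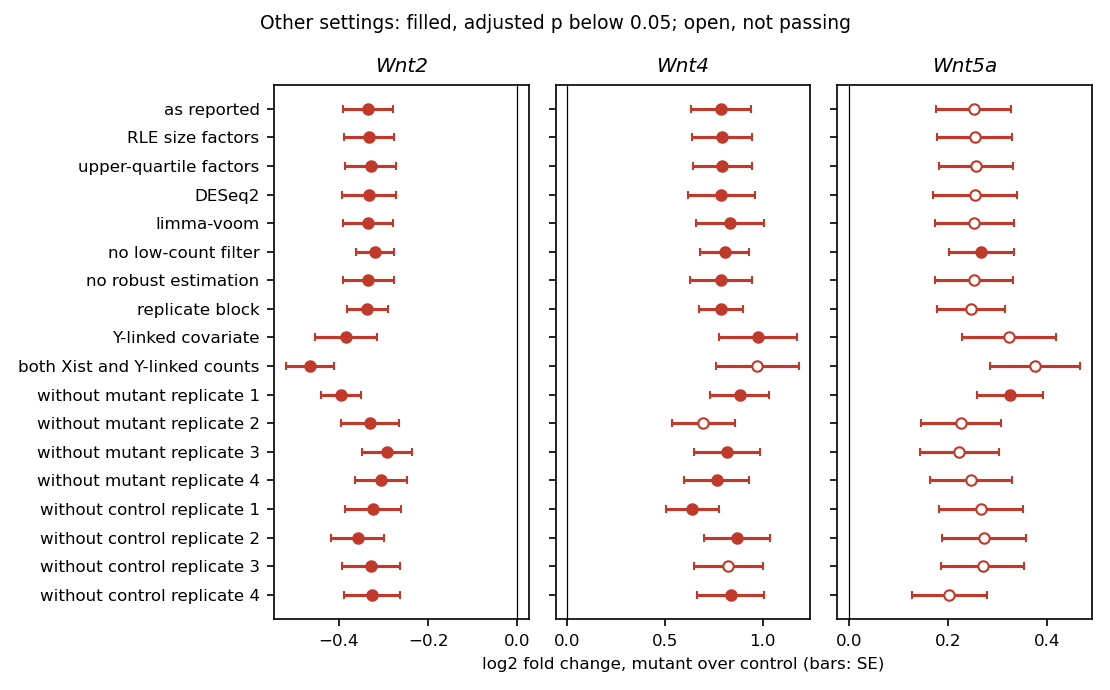
Log2 fold change of mutant over control, with SE, of Wnt2, Wnt4 and Wnt5a as reported and in 17 alternatives; filled points passed an adjusted p of 0.05. Wnt2 is filled throughout, Wnt4 is open in 3 alternatives, and Wnt5a is filled in 2.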

How the data were processed

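RNA of 8 libraries from mouse lung at E13.5 was sequenced, 4 mutant and 4 control. The labels' protocols name TRIzol LS for RNA isolation and a stranded Illumina kit for messenger RNA. The authors deposited raw counts of read pairs per gene, made per the file headers by featureCounts 1.6.4 over GENCODE vM25 exons, set for read pairs and for the reverse strand (option 2); options that keep reads from several places or several genes were not set. Reads shared by overlapping exons on the same strand were therefore not counted. STAR, DESeq2 and GRCm38 appear in the submitters' processing notes, and no STAR version was given. The deposited table also gives exon lengths, used for CPM per kb.

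Symbols came from GENCODE vM21 by gene ID, for 55141 of 55401 genes. The members and lists were chosen with earlier results of these data known, and the WNT pathway genes named beyond the ligands were those called in a list or, where none was, the 2 highest per length in the mean of all libraries. Marker genes and the neighbours of Wnt2 and Wnt4 were named outside that rule, after their values were seen. In edgeR 4.0.16 (R 4.3.3), the package's low-count filter left 15788 genes with 99.9% of the counts, libraries were scaled by TMM, and mutant was compared with control in 1 robust quasi-likelihood fit with no covariate, two-sided, with Benjamini-Hochberg adjustment over all genes tested. Errors of fold changes are SE of the log2 fold change. Alternatives used DESeq2 1.42.0, limma 3.58.1 (voom), other scalings and filters, a replicate block, the log2 level of 4 Y-linked genes plus 1 CPM as a covariate, and each library left out; the 4 libraries with at least 10 CPM of both Xist and Y-linked genes were chosen after seeing the data. Squared count differences between libraries of a group were 2.92 to 8.91 times those of sampling noise, so no library was merged with another; separate preparations of the same RNA can also differ by more than that noise.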

Additional observations from a re-analysis of the deposited data

Results flagged for a closer look

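Each of 72 groups of 4 libraries, taken from the ligands, the genes named beside them and the summed marker lists, was searched for a library set apart from the other 3 by a gap whose share of the whole range exceeded Dixon's critical value at 95%. Chance flags about 1 in 20 groups, and 6 of the 72 were found. Wnt5a in control replicate 4 lay at 21.9 CPM, below the next control at 25.2 CPM (gap 0.904 of the range). Without that library the log2 fold change of Wnt5a was 0.20 (adjusted p = 0.2, edgeR). Lef1 in control replicate 2 lay at 42.1 CPM, below the next control at 48.5 CPM (gap 0.882), and Wnt2 was also lowest among controls there. The summed mesothelium markers in mutant replicate 1 lay at 309 CPM, above the next mutant at 267 CPM (gap 0.98). The summed markers of esophagus and stomach in control replicate 3 lay at 8.25 CPM, above 3.50 CPM (gap 0.889). The summed liver markers stood apart in mutant replicate 4, at 20.8 against 7.02 CPM (gap 0.832), and in control replicate 1, at 2.43 against 6.71 CPM (gap 0.835). The part of these tissues in the ligands' levels was not tested.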

How the results depend on the processing

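The number of genes called over the whole table, 236 in the fit reported, was 380 with DESeq2, 791 with no low-count filter, 142 without robust estimation, 541 with the replicate block, 95 with the Y-linked covariate and 90 in the 4 mixed libraries. It ran from 96 to 479 with single libraries left out, and the cause was not tested. The direction split of 89 higher and 147 lower turned to 52 and 43 with the Y-linked covariate. Whether replicate numbers pair the samples could not be settled from these values. Deviations of same-numbered mutants and controls correlated weakly, at 0.0811, 0.0648, 0.181 and 0.0125, and 2 of 4 mutants correlated best with their own number. Under the replicate block the log2 fold changes were -0.34 for Wnt2 (SE 0.046) and 0.79 for Wnt4 (SE 0.111). In the fit reported their SE were 0.0559 and 0.154.

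Of the ligands, 2 were called as reported, 1 in the 4 mixed libraries, and 1 to 3 with single libraries left out. Wnt4 was not called in the mixed libraries (log2 fold change 0.97) and ran from 0.64 to 0.88 with single libraries left out. Wnt5a was called with no low-count filter (0.27) and ran from 0.20 to 0.33 with single libraries left out. The log2 fold change of Wnt5b turned to -0.0019 with the Y-linked covariate and to -0.012 in the 4 libraries, and that of Wnt7b to -0.011 in the 4 libraries, with -0.0098 to 0.018 when single libraries were left out. Wnt6 and Wnt9b are limited by low counts.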

Other observations

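Of the 6 other tested genes within 500 kb of Wnt2, 2 were called by edgeR, 1 lower and 1 higher, beside 1.49% of all genes; these neighbours were looked up after the value of Wnt2 was known. Asz1, a germ cell gene whose end lies 20.4 kb upstream of Wnt2 on the same strand, measured 2.72, 2.99, 2.78 and 2.31 CPM in mutant replicates 1 to 4, against 4.07, 3.72, 4.41 and 4.12 CPM in control replicates 1 to 4 (log2 fold change -0.58, SE 0.137, adjusted p = 0.0429). Cftr, the chloride channel gene 140 kb away, measured 20.5, 18.6, 20.3 and 19.4 CPM in mutants, against 15.6, 14.7, 16.5 and 14.997 CPM in controls (log2 fold change 0.35, SE 0.0684, adjusted p = 0.0162). St7, on the other side of Wnt2, gave a log2 fold change of -0.06 (adjusted p = 0.688, SE 0.0542). Cdc42, 20 kb from Wnt4, was not called (log2 fold change -0.00, SE 0.0315, adjusted p = 0.98).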
